A study of Mus musculus with 18 samples.

Results

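*Sesn2*, *Ddit4*, *Asns*, *Trim66*, *Adm2*, *Ddr2*, *Stc2*, *Cebpb*, *Vldlr* and *Nupr1* are genes linked to the stress response of cells, and these 10 were chosen by symbol for a strong induction in the RNA of both mutants against B6J, once families of transporters, one-carbon enzymes and glutathione enzymes had been set aside. They are 10 of the 54752 genes in the RNA files, and all 10 are also among the 22523 genes of the footprint files. Because RNA in the mutants chose them, their RNA difference from B6J is given as a description and no test of it is drawn on. The data go against the description "strongly induced" for *Ddit4* and *Vldlr*, whose RNA was 1.26-fold and 1.47-fold that of B6J in B6J.*Gtpbp1*-/- mice and 1.33-fold and 1.41-fold in B6J-*Gtpbp2*-/- mice.

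Cerebella of 3-week-old mice were profiled by sequencing of poly(A) RNA and of ribosome footprints, which are the mRNA stretches that ribosomes protect from nuclease. B6J mice (C57BL/6J), B6J.*Gtpbp1*-/- mice (part of one exon and all of the next replaced by a PGK-Neo cassette) and B6J-*Gtpbp2*-/- mice (the *nmf205* point mutation) each gave 3 RNA and 3 footprint libraries, 18 in all. Every group carried the B6J mutation in *n-Tr20*, a neuronal tRNA gene that decodes AGA, and each footprint library came from 1 cerebellum. The RNA files, summed over genes, held 49090286, 50301156 and 52114145 counts in B6J, 44242824, 49293902 and 37794333 in B6J.*Gtpbp1*-/- and 46026737, 50878561 and 51979454 in B6J-*Gtpbp2*-/- libraries. The footprint files held 4428395, 4489970 and 6523974 counts in B6J, 7054063, 8612441 and 5944024 in B6J.*Gtpbp1*-/- and 6281637, 3630823 and 10442573 in B6J-*Gtpbp2*-/- libraries. Mitochondrial genes held 5.93, 5.61 and 6.18% of RNA counts in B6J, 4.42, 4.99 and 4.56% in B6J.*Gtpbp1*-/- and 5.01, 4.80 and 5.04% in B6J-*Gtpbp2*-/- libraries. Every mutant library was thus below every B6J library in this share of RNA, while the shares of footprints overlapped. The part of this difference in the RNA values below was not tested.

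*Gtpbp1* RNA was 71.0, 77.8 and 66.7 CPM (counts scaled by the size of the library, with TMM factors) in the B6J libraries, 44.0, 41.7 and 43.9 in B6J.*Gtpbp1*-/- libraries and 58.6, 72.1 and 65.7 in B6J-*Gtpbp2*-/- libraries. Its footprints were 73.6, 116.7 and 84.8 CPM in B6J, 32.0, 25.5 and 35.6 CPM in B6J.*Gtpbp1*-/- and 79.3, 66.8 and 62.1 CPM in B6J-*Gtpbp2*-/- libraries. Every B6J.*Gtpbp1*-/- library lay below every other library in CPM in both assays, but not in TPM, which scales by transcript length and where B6J.*Gtpbp1*-/- replicate 3 (41.1 TPM) lay within the range of B6J (38.4 to 43.5 TPM). *Gtpbp2* RNA was 85.9, 74.0 and 88.1 CPM in B6J, 109.0, 100.4 and 104.4 CPM in B6J.*Gtpbp1*-/- and 65.5, 75.4 and 72.7 CPM in B6J-*Gtpbp2*-/- libraries. *Gtpbp2* footprints were 44.7, 36.1 and 38.4 CPM in B6J, 36.2, 43.3 and 58.3 CPM in B6J.*Gtpbp1*-/- and 28.9, 26.4 and 7.54 CPM in B6J-*Gtpbp2*-/- libraries. The B6J-*Gtpbp2*-/- libraries were the lowest in *Gtpbp2* footprints, while their *Gtpbp2* RNA overlapped that of B6J in CPM. In TPM *Gtpbp2* RNA was 114.1, 91.7 and 99.0 in B6J against 127.0, 144.6 and 151.3 in B6J-*Gtpbp2*-/- libraries, so the direction in RNA depends on the scale. *Gtpbp1* fell in B6J.*Gtpbp1*-/- mice in RNA (log2 fold change -0.73; edgeR adjusted p = 5.94e-05) and footprints (-1.57; edgeR adjusted p = 0.00676). For *Gtpbp2* in B6J-*Gtpbp2*-/- mice the values were -0.22 (95% interval -0.42 to -0.01; edgeR adjusted p = 0.190) and -0.97 (-1.99 to 0.06; edgeR adjusted p = 0.321), and *Gtpbp2* RNA rose in B6J.*Gtpbp1*-/- mice (0.34; edgeR adjusted p = 0.0154).

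By *Ddx3y*, a gene of the Y chromosome, RNA libraries 1 and 2 of B6J.*Gtpbp1*-/- and 2 of B6J came from males, as did footprint libraries 1 of B6J.*Gtpbp1*-/- and 1 and 2 of B6J, and all B6J-*Gtpbp2*-/- libraries came from females. The RNA and footprint libraries of the same number therefore differed in sex in B6J.*Gtpbp1*-/- replicate 2 and in B6J replicate 1. Batch was set by assay, with all RNA libraries in batch 1 and all footprint libraries in batch 2, so batch and assay cannot be told apart.

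When translation or amino acid supply is disturbed, kinases of the integrated stress response (ISR) phosphorylate the initiation factor eIF2α, which lowers general initiation and raises synthesis of the transcription factor ATF4. ATF4 pairs with C/EBP proteins and drives genes for amino acid supply, redox balance and the restraint of mTORC1. In neurons this program is known both for helping cells to adapt and, when prolonged, for promoting their death.

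Across the genes, 9 of 10 were past the threshold of the edgeR quasi-likelihood test (Benjamini-Hochberg adjusted p of at most 0.05) with more RNA in B6J.*Gtpbp1*-/- than in B6J mice, where 5.90% of all tested genes were called higher, and *Ddit4* was not in this main test. The count was again 9 of 10 in B6J-*Gtpbp2*-/- mice, against 3.61% of all tested genes. Nothing is read from these counts, since this contrast chose the genes, and the mutants shared the same B6J libraries. All 10 passed the filter on low counts, but *Adm2* did so only through the mutant libraries.

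In footprints, which come from other libraries but measure the same mRNAs and so lend no independent support to the RNA, 8 of 10 genes rose in B6J.*Gtpbp1*-/- mice (edgeR quasi-likelihood adjusted p of at most 0.05), against 0.573% of all genes tested. Of the same genes 9 of 10 rose in B6J-*Gtpbp2*-/- mice, against 1.28%. *Vldlr* was called in neither mutant and *Ddit4* only in B6J-*Gtpbp2*-/-. *Adm2* is in both counts although its footprints passed the filter only through the mutant libraries, and without it 7 of 9 and 8 of 9 rose. With sex as a covariate 5 of 10 rose in B6J-*Gtpbp2*-/- mice, where *Adm2*, *Ddit4*, *Cebpb* and *Nupr1* lost their calls. Between 5 and 8 were called in B6J.*Gtpbp1*-/- mice when 1 library was left out, the fewest without B6J replicate 1, and between 5 and 9 in B6J-*Gtpbp2*-/- mice, the fewest without B6J-*Gtpbp2*-/- replicate 1. *Adm2* is not tested once a mutant library is removed, since fewer than 3 libraries then hold 5 counts.

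**Figure D1:**
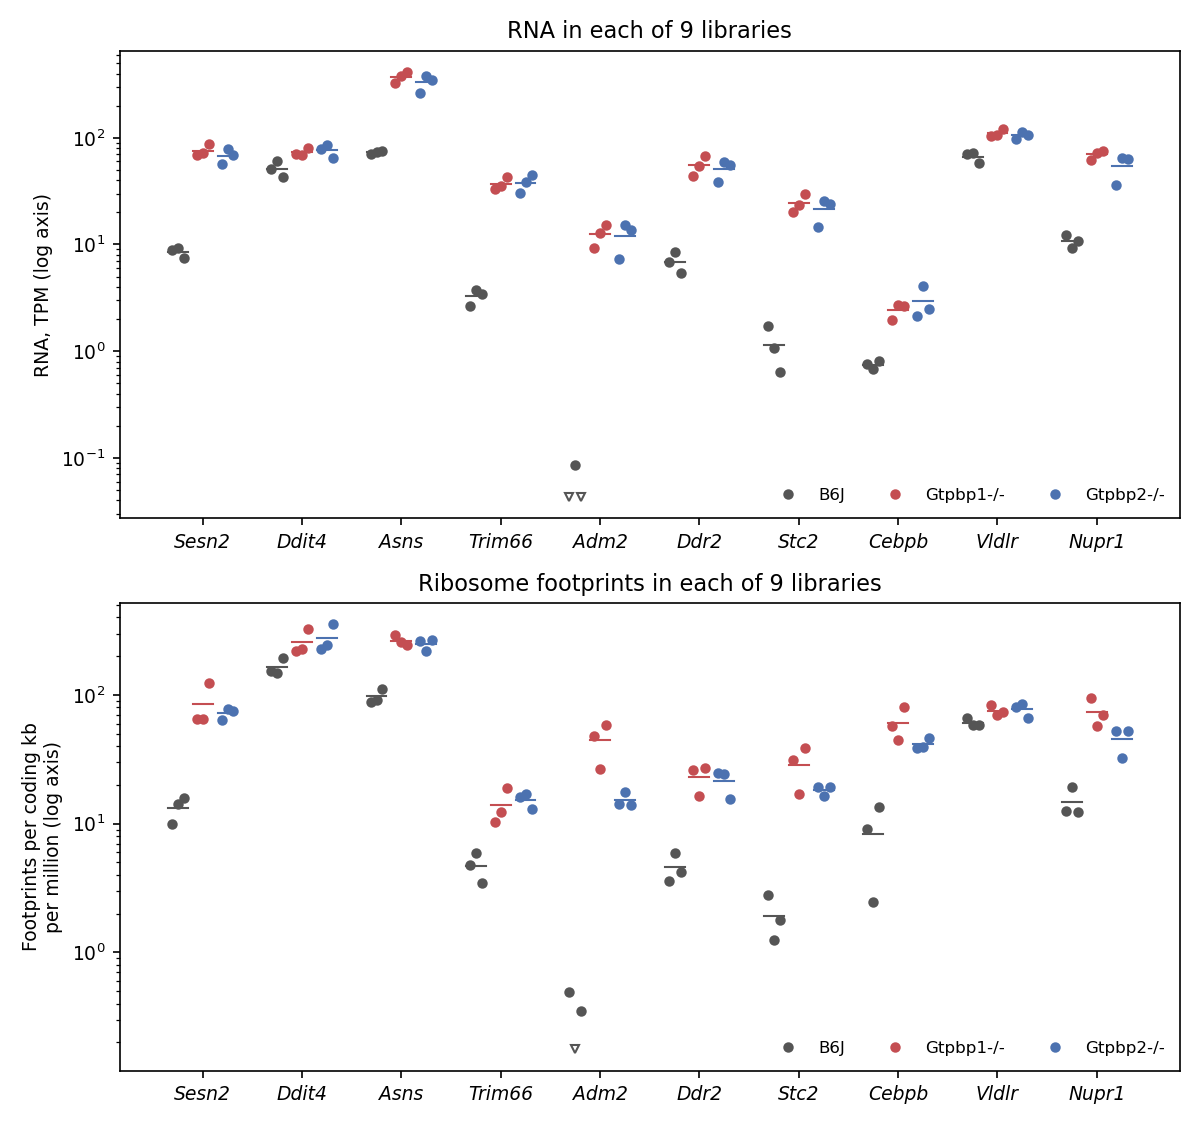
RNA (TPM, upper panel) and footprints (CPM per coding kilobase, lower panel) of the 10 genes in every library on log axes, with a bar at the mean of 3 libraries; open triangles mark libraries at 0. *Asns* RNA stood between 70.9 and 75.05 in B6J and between 264.3 and 413.6 in the mutants, and *Adm2* stood near 0 in B6J alone.

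*Sesn2* (ENSMUSG00000028893, chr4:132492032-132510501, here and below by Gencode M21 on GRCm38) encodes sestrin 2, a leucine sensor that restrains mTORC1 through the GATOR complexes. Its RNA was 20.2, 21.2 and 17.2 CPM in B6J, 142.7, 145.5 and 174.6 CPM in B6J.*Gtpbp1*-/- and 117.1, 156.9 and 142.6 CPM in B6J-*Gtpbp2*-/- libraries. Every mutant library was thus several times above every B6J library, while the mutants overlapped, and the means were 7.90-fold and 7.11-fold that of B6J. *Sesn2* footprints were 14.3, 20.5 and 22.9 CPM in B6J, 94.4, 93.1 and 179.9 CPM in B6J.*Gtpbp1*-/- and 92.3, 111.9 and 108.8 CPM in B6J-*Gtpbp2*-/- libraries. The third B6J.*Gtpbp1*-/- library was the highest of all, and no mutant library overlapped B6J. Footprints rose by a log2 fold change of 2.66 (SE 0.293) in B6J.*Gtpbp1*-/- and 2.42 (SE 0.203) in B6J-*Gtpbp2*-/- mice, with edgeR adjusted p of 0.00105 and 1.77e-05, and both calls were kept in all 12 alternatives.

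*Ddit4* (ENSMUSG00000020108, chr10:59949669-59951834) encodes REDD1, which restrains mTORC1 through the TSC complex. Its RNA was 51.2, 60.3 and 43.5 CPM in B6J, 63.3, 61.8 and 70.6 CPM in B6J.*Gtpbp1*-/- and 71.2, 76.6 and 57.8 CPM in B6J-*Gtpbp2*-/- libraries. The B6J and B6J.*Gtpbp1*-/- libraries stood apart by a narrow margin, and B6J-*Gtpbp2*-/- overlapped B6J. *Ddit4* footprints were 105.4, 101.7 and 132.2 CPM in B6J, 151.1, 156.7 and 224.7 CPM in B6J.*Gtpbp1*-/- and 156.2, 167.1 and 242.9 CPM in B6J-*Gtpbp2*-/- libraries. Each mutant library was above each B6J library. In B6J.*Gtpbp1*-/- mice the log2 fold change in footprints was 0.65 (SE 0.205; 95% interval 0.21 to 1.09; edgeR adjusted p = 0.176). Footprints rose by 0.73 in B6J-*Gtpbp2*-/- mice (SE 0.186; edgeR adjusted p = 0.0479). That call was lost without B6J-*Gtpbp2*-/- replicate 1, 2 or 3 (adjusted p = 0.0859, 0.0895 and 0.171) and without B6J replicate 1 or 2 (0.161 and 0.180). It was also lost with sex as a covariate (0.566, at a log2 fold change of 0.51), with all 9 libraries in a single model (0.0871) and with upper quartile normalization (0.0518), within a range of 0.0144 to 0.566 over all alternatives in edgeR and DESeq2.

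*Asns* (ENSMUSG00000029752, chr6:7675169-7693254) encodes asparagine synthetase, which makes asparagine from aspartate and glutamine. *Asns* RNA was 66.3, 71.7 and 68.1 CPM in B6J, 271.0, 304.9 and 334.4 CPM in B6J.*Gtpbp1*-/- and 215.2, 308.5 and 285.5 CPM in B6J-*Gtpbp2*-/- libraries. B6J libraries were nearly level, and every mutant library was above them by more than the spread of either group, with means 4.42-fold and 3.93-fold that of B6J. Its footprints were 149.6, 153.7 and 188.7 CPM in B6J, 493.3, 433.0 and 410.8 CPM in B6J.*Gtpbp1*-/- and 441.5, 371.6 and 449.4 CPM in B6J-*Gtpbp2*-/- libraries. Again the mutants overlapped each other and not B6J. Footprints rose by a log2 fold change of 1.44 (SE 0.180) and 1.35 (SE 0.159), with edgeR adjusted p of 0.00265 and 0.000427, in all 12 alternatives.

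*Trim66* (ENSMUSG00000031026, chr7:109449006-109508134) encodes a member of the TIF1 family of chromatin-binding TRIM proteins. Its RNA was 14.8, 18.8 and 17.8 CPM in B6J, 154.7, 165.6 and 196.8 CPM in B6J.*Gtpbp1*-/- and 139.3, 174.2 and 194.0 CPM in B6J-*Gtpbp2*-/- libraries. All mutant libraries were far above B6J, with means 10.05-fold and 9.86-fold that of B6J. *Trim66* footprints were 19.2, 24.2 and 14.1 CPM in B6J, 41.8, 50.1 and 77.3 CPM in B6J.*Gtpbp1*-/- and 65.4, 68.4 and 52.7 CPM in B6J-*Gtpbp2*-/- libraries. The groups did not overlap B6J, but the distance was smaller than in RNA. Footprints rose by a log2 fold change of 1.56 (SE 0.278) in B6J.*Gtpbp1*-/- and 1.69 (SE 0.220) in B6J-*Gtpbp2*-/- mice, with edgeR adjusted p of 0.0209 and 0.000955. In B6J.*Gtpbp1*-/- mice the call was lost without B6J replicate 1 (adjusted p = 0.148) and without B6J replicate 3 (0.0536), and with sex as a covariate (0.0964), at log2 fold changes of 1.56, 1.37 and 1.54, within a range of 4.30e-05 to 0.148 over the alternatives in edgeR and DESeq2.

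*Cebpb* (ENSMUSG00000056501, chr2:167688915-167690418) encodes the transcription factor C/EBPβ, a dimer partner of ATF4. Its RNA counts were low, with 25, 22 and 28 in B6J, 58, 85 and 62 in B6J.*Gtpbp1*-/- and 65, 131 and 84 in B6J-*Gtpbp2*-/- libraries. Each mutant library held more than each B6J library, and the means were 2.89-fold and 3.48-fold that of B6J. The span of *Tmem189* overlaps *Cebpb* on the opposite strand with between 54.6 and 61.9 CPM of RNA, and the RNA kit does not keep the strand. Whole gene spans were compared here, and whether the exons of these genes share sequence was not examined. *Cebpb* footprints were 8.05, 2.202 and 11.9 CPM in B6J, 51.1, 39.7 and 71.6 CPM in B6J.*Gtpbp1*-/- and 34.7, 35.2 and 40.9 CPM in B6J-*Gtpbp2*-/- libraries. B6J replicate 2 was the lowest, and all mutant libraries were well above B6J. Footprints rose by a log2 fold change of 2.84 (SE 0.443; edgeR adjusted p = 0.0168) and 2.28 (SE 0.415; edgeR adjusted p = 0.0175). In B6J.*Gtpbp1*-/- mice the call was lost without B6J.*Gtpbp1*-/- replicate 1 (adjusted p = 0.0777) or B6J replicate 1 (0.104), in a range of 7.51e-10 to 0.104. In B6J-*Gtpbp2*-/- mice it was lost without B6J-*Gtpbp2*-/- replicate 1 or 2 (0.0786 and 0.0556) or B6J replicate 1 (0.0926) and with sex as a covariate (0.171, at a log2 fold change of 1.62), in a range of 2.38e-07 to 0.171 over edgeR and DESeq2.

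*Nupr1* (ENSMUSG00000030717, chr7:126623249-126630861) encodes a small chromatin-associated protein of the stress response. *Nupr1* RNA was 3.92, 3.65 and 4.33 CPM in B6J, 19.4, 21.9 and 22.0 CPM in B6J.*Gtpbp1*-/- and 12.2, 20.8 and 19.9 CPM in B6J-*Gtpbp2*-/- libraries. The first B6J-*Gtpbp2*-/- library was the lowest of the mutants and still well above B6J, and the means were 5.30-fold and 4.44-fold that of B6J. Footprints were 4.03, 6.17 and 3.97 CPM in B6J, 30.7, 18.4 and 22.7 CPM in B6J.*Gtpbp1*-/- and 16.9, 10.4 and 16.8 CPM in B6J-*Gtpbp2*-/- libraries. The 3 groups did not overlap, with B6J.*Gtpbp1*-/- above B6J-*Gtpbp2*-/- and B6J-*Gtpbp2*-/- above B6J. *Nupr1* footprints rose by a log2 fold change of 2.34 (SE 0.316; edgeR adjusted p = 0.00429) and 1.65 (SE 0.328; edgeR adjusted p = 0.0122). Without B6J replicate 1 the call was lost in B6J.*Gtpbp1*-/- (adjusted p = 0.0525) and in B6J-*Gtpbp2*-/- mice (0.0597), and in B6J-*Gtpbp2*-/- mice also without B6J-*Gtpbp2*-/- replicate 1 (0.0913) and with sex as a covariate (0.153, at a log2 fold change of 1.89), in edgeR. The alternatives spanned 2.04e-08 to 0.0525 in B6J.*Gtpbp1*-/- and 0.000767 to 0.153 in B6J-*Gtpbp2*-/- mice.

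*Adm2* (ENSMUSG00000054136, chr15:89322720-89324731) encodes adrenomedullin 2 (intermedin), a secreted peptide that signals through the calcitonin receptor-like receptor. Its RNA counts were 0, 3 and 0 in B6J, 287, 440 and 381 in B6J.*Gtpbp1*-/- and 231, 535 and 488 in B6J-*Gtpbp2*-/- libraries. It was almost absent from B6J at this depth and plainly present in each mutant library. With 1108 counts in B6J.*Gtpbp1*-/- and 1254 in B6J-*Gtpbp2*-/- against 3 in B6J, the ratio was 391.0 (exact 95% counting interval 133.5 to 1899) and 393.3 (134.3 to 1910). Footprint counts were 1, 0 and 1 in B6J, 151, 104 and 159 in B6J.*Gtpbp1*-/- and 41, 29 and 65 in B6J-*Gtpbp2*-/- libraries. All B6J.*Gtpbp1*-/- libraries were above all B6J-*Gtpbp2*-/- libraries, also in CPM, at 21.8, 11.9 and 26.5 CPM against 6.40, 7.97 and 6.28 CPM. Against B6J the footprint ratio was 146.4 (40.3 to 1213) in B6J.*Gtpbp1*-/- and 50.7 (13.8 to 422.8) in B6J-*Gtpbp2*-/- mice. These intervals cover counting error only.

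*Stc2* (ENSMUSG00000020303, chr11:31357307-31370074) encodes stanniocalcin 2, a secreted glycoprotein that inhibits the protease PAPP-A. *Stc2* RNA was 2.75, 2.07 and 1.55 CPM in B6J, 42.6, 47.1 and 59.1 CPM in B6J.*Gtpbp1*-/- and 26.3, 51.3 and 49.7 CPM in B6J-*Gtpbp2*-/- libraries. The mutants overlapped each other far above B6J, and the means were 23.4-fold and 20-fold that of B6J. Its footprints were 2.46, 1.10 and 1.59 CPM in B6J, 27.5, 15.0 and 34.2 CPM in B6J.*Gtpbp1*-/- and 17.2, 14.6 and 17.2 CPM in B6J-*Gtpbp2*-/- libraries. B6J rested on 11, 5 and 10 footprints, and the mutant libraries on 53 to 205. Footprints rose by a log2 fold change of 3.89 (SE 0.414) in B6J.*Gtpbp1*-/- and 3.24 (SE 0.362) in B6J-*Gtpbp2*-/- mice, with edgeR adjusted p of 0.000848 and 0.000281, in all 12 alternatives.

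*Ddr2* (ENSMUSG00000026674, chr1:169972307-170110762) encodes a discoidin domain receptor, a tyrosine kinase that binds fibrillar collagen. Its RNA was 23.9, 25.05 and 19.6 CPM in B6J, 137.5, 176.2 and 201.8 CPM in B6J.*Gtpbp1*-/- and 118.1, 181.6 and 178.9 CPM in B6J-*Gtpbp2*-/- libraries. Mutant libraries lay well above B6J, with means 7.53-fold and 6.99-fold that of B6J. *Ddr2* footprints were 9.17, 15.2 and 10.8 CPM in B6J, 66.6, 42.1 and 69.8 CPM in B6J.*Gtpbp1*-/- and 63.9, 62.1 and 39.8 CPM in B6J-*Gtpbp2*-/- libraries. No mutant library overlapped B6J. Footprints rose by a log2 fold change of 2.34 (SE 0.271) and 2.22 (SE 0.251), with edgeR adjusted p of 0.00165 and 0.000281, in all 12 alternatives. Fibroblast and bone markers, cells that also carry *Ddr2*, summed to 373.3, 804.4 and 971.5 CPM of footprints in B6J, 1796, 1486 and 2791 CPM in B6J.*Gtpbp1*-/- and 720.5, 1098 and 598.0 CPM in B6J-*Gtpbp2*-/- libraries. They were high in B6J.*Gtpbp1*-/- alone, led by *Col1a1* or *Col1a2* in each library, with 0 of 5 called in edgeR in any comparison, and their RNA sums overlapped, at 172.7 ± 26.6, 189.6 ± 24.5 and 184.1 ± 24.8 CPM (SD, n = 3). The part of these cells in the *Ddr2* values of either mutant was not tested.

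*Vldlr* (ENSMUSG00000024924, chr19:27216484-27254231) encodes a receptor for reelin and for lipoproteins, which takes part in the layering of the cerebellum. *Vldlr* RNA was 240.9, 263.2 and 217.5 CPM in B6J, 332.6, 344.3 and 385.9 CPM in B6J.*Gtpbp1*-/- and 309.8, 365.0 and 343.7 CPM in B6J-*Gtpbp2*-/- libraries. The mutants were above B6J in every library, by less than any other member save *Ddit4*. Its footprints were 174.5, 152.6 and 153.0 CPM in B6J, 217.7, 183.6 and 192.1 CPM in B6J.*Gtpbp1*-/- and 211.8, 224.0 and 173.7 CPM in B6J-*Gtpbp2*-/- libraries. The B6J.*Gtpbp1*-/- libraries stood just above B6J, and B6J-*Gtpbp2*-/- replicate 3 lay within B6J. The log2 fold change in footprints was 0.31 (95% interval -0.06 to 0.68; edgeR adjusted p = 0.493) in B6J.*Gtpbp1*-/- and 0.33 (0.00 to 0.66; edgeR adjusted p = 0.289) in B6J-*Gtpbp2*-/- mice.

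**Figure D2:**
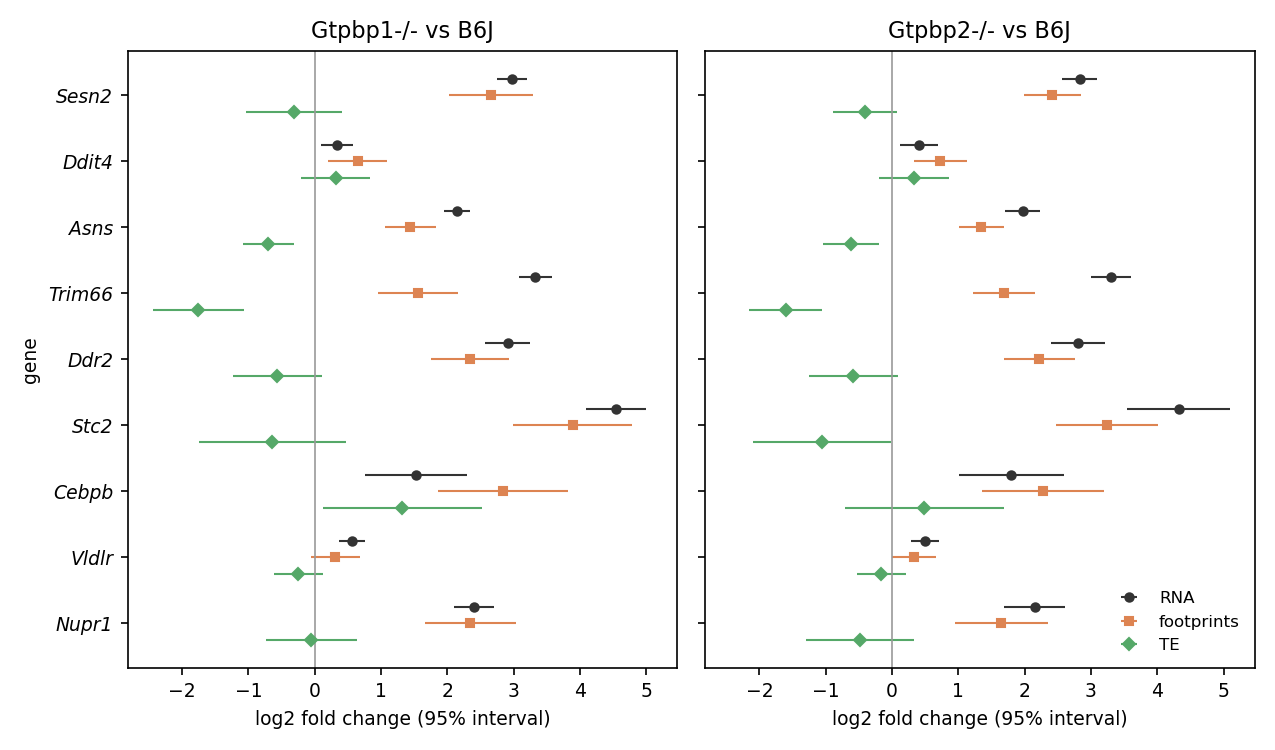
Changes (log2) of the mutants against B6J in RNA (circles), footprints (squares) and TE (diamonds) with 95% intervals from edgeR, for the 9 genes with enough B6J counts for a fitted fold. *Trim66* stood at 3.33 in RNA, 1.56 in footprints and -1.76 in TE in B6J.*Gtpbp1*-/- mice.

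Translation efficiency (TE), the change in footprints relative to the change in RNA, was tested as the interaction of assay and genotype, and its RNA part is the one that chose the genes. A gene chosen for high RNA in the mutants is thereby drawn toward a lower TE against B6J, so the values and calls against B6J are described and no result is read from them. For B6J.*Gtpbp1*-/- against B6J, edgeR called 0 of the 10 genes and 0 of 13086 genes in all (0%), with 1170 genes at an unadjusted p under 0.05 and 58 called by DESeq2. For B6J-*Gtpbp2*-/- against B6J it called 0 of 10 and 1 of 12931 genes (0.00773%), with 1554 genes at an unadjusted p under 0.05 and 160 called by DESeq2. Among the members, 3 of 10 were under 0.05 unadjusted in each mutant.

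Of the 9 members other than *Adm2*, whose B6J counts do not carry a fitted change, *Trim66* had the lowest change in TE in both mutants. Its footprints per RNA, in CPM per CPM of the group means, went from 1.12 in B6J to 0.327 in B6J.*Gtpbp1*-/- cerebella and 0.368 in B6J-*Gtpbp2*-/- cerebella. The log2 change in TE was -1.76 (95% interval -2.44 to -1.07; edgeR adjusted p = 0.299) and -1.60 (-2.15 to -1.06; edgeR adjusted p = 0.0820). DESeq2 called *Trim66* in both mutants, at adjusted p of 0.00120 and 2.04e-05, and edgeR called it without footprint B6J replicate 3 (0.0188 and 0.00624) and, in B6J.*Gtpbp1*-/-, without footprint B6J.*Gtpbp1*-/- replicate 3 (0.0177). Its adjusted p spanned 0.00120 to 0.793 and 2.04e-05 to 0.237 over all alternatives. Without footprint B6J replicate 3 the genes called for TE numbered 174 in B6J.*Gtpbp1*-/- cerebella and 158 in B6J-*Gtpbp2*-/- cerebella.

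*Asns* had 2.39 footprint CPM per RNA CPM in B6J, 1.47 in B6J.*Gtpbp1*-/- cerebella and 1.56 in B6J-*Gtpbp2*-/- cerebella. The log2 change in TE was -0.70 (-1.09 to -0.31; edgeR adjusted p = 0.448) and -0.62 (-1.04 to -0.20; edgeR adjusted p = 0.253), and DESeq2 called it in B6J.*Gtpbp1*-/- mice (adjusted p = 0.0323, within 0.0323 to 0.793 over the alternatives). *Cebpb* went the other way, with 14.2 in B6J, 35.8 in B6J.*Gtpbp1*-/- cerebella and 20.3 in B6J-*Gtpbp2*-/- cerebella. Its log2 change in TE was 1.32 (0.12 to 2.52; edgeR adjusted p = 0.532) and 0.49 (-0.71 to 1.69; edgeR adjusted p = 0.772). Of the other members with a fitted TE, *Stc2* stood at -0.64 and -1.06, *Ddr2* at -0.56 and -0.58, *Sesn2* at -0.31 and -0.41, and *Vldlr* at -0.25 and -0.16. *Ddit4* stood at 0.32 and 0.33. *Nupr1* stood at -0.05 and -0.48, and its sign in B6J.*Gtpbp1*-/- mice turned, up to 0.15, without footprint B6J.*Gtpbp1*-/- replicate 2, RNA B6J replicate 2 or footprint B6J replicate 2.

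The mutants were then compared with each other. RNA of both mutants entered the choice of the genes, so likeness of their RNA is in part built in. In RNA, edgeR called 0 of 10 members against 0.0595% of all genes (15 of 25190), with 0 of 10 at an unadjusted p under 0.05 and 0 by DESeq2. The log2 differences ran from -0.27 for *Cebpb* (95% interval -0.90 to 0.36) to 0.26 for *Nupr1* (-0.15 to 0.66). For *Sesn2* the difference was 0.15 (-0.11 to 0.41), for *Asns* 0.17 (-0.12 to 0.46), for *Trim66* 0.03 (-0.26 to 0.31) and for *Adm2* 0.02 (-0.58 to 0.63).

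In footprints edgeR called 0 of 10 members and 0 of 14142 genes (0%) between the mutants, with 1523 genes and 4 members at an unadjusted p under 0.05 and 100 genes, *Adm2* among them, called by DESeq2. *Adm2* had 2.93-fold more footprints in B6J.*Gtpbp1*-/- than in B6J-*Gtpbp2*-/- mice, a log2 difference of 1.55 (95% interval 0.86 to 2.24; unadjusted p = 0.000344 and adjusted p = 0.221 in edgeR, adjusted p = 0.00467 in DESeq2, the lowest of its alternatives, which reached 0.768). *Nupr1* differed by 0.68 (0.10 to 1.26; edgeR adjusted p = 0.411), *Stc2* by 0.64 (0.01 to 1.26; edgeR adjusted p = 0.459) and *Cebpb* by 0.55 (0.06 to 1.03; edgeR adjusted p = 0.42). The others ran from -0.14 for *Trim66* to 0.23 for *Sesn2*. Without B6J-*Gtpbp2*-/- replicate 3, 33 genes were called in footprints.

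For TE between the mutants edgeR called 0 of 10 members and 0 of 13292 genes (0%), with 1483 genes at an unadjusted p under 0.05 and 155 called by DESeq2. *Adm2* stood at 1.54 (95% interval 0.56 to 2.51; edgeR adjusted p = 0.284), and its footprints per RNA were 2.43 in B6J.*Gtpbp1*-/- cerebella and 0.850 in B6J-*Gtpbp2*-/- cerebella. *Cebpb* stood at 0.82 (0.08 to 1.57; edgeR adjusted p = 0.406), and the lowest was *Trim66* at -0.16 (-0.78 to 0.46). Without footprint B6J-*Gtpbp2*-/- replicate 3, 177 genes were called.

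**Figure D3:**
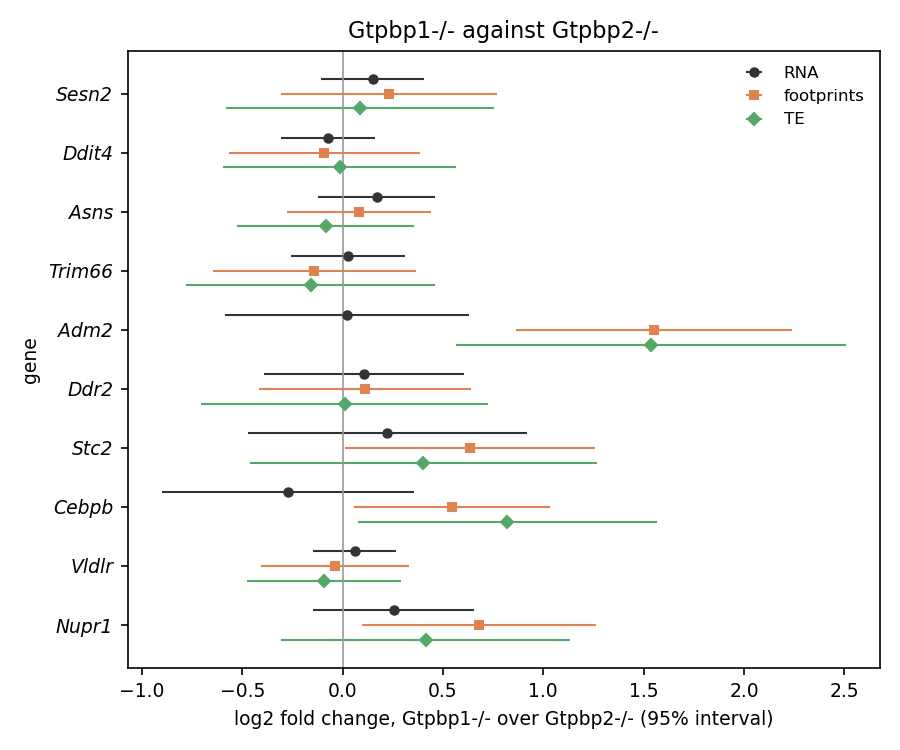
Differences (log2) of B6J.*Gtpbp1*-/- over B6J-*Gtpbp2*-/- mice in RNA (circles), footprints (squares) and TE (diamonds) with 95% intervals from edgeR. *Adm2* stood at 0.02 in RNA and at 1.55 in footprints.

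Levels were compared between genes in TPM, which scales RNA by transcript length and library size. In B6J, RNA of *Asns* (73.3 ± 2.16 TPM, SD, n = 3), *Vldlr* (66.4 ± 7.62) and *Ddit4* (51.3 ± 8.61) came first, each overlapping the next. *Nupr1* (10.8 ± 1.504), *Sesn2* (8.59 ± 0.965) and *Ddr2* (6.91 ± 1.51) followed, overlapping one another in turn, then *Trim66* (3.26 ± 0.550). *Stc2* (1.14 ± 0.541) and *Cebpb* (0.748 ± 0.0594) overlapped, and *Adm2* was last at 0.0286 ± 0.0496 TPM.

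In B6J.*Gtpbp1*-/- mice *Asns* led at 373.0 ± 42.2 TPM, clear of *Vldlr* at 111.2 ± 9.36. *Sesn2* (76.0 ± 9.43), *Ddit4* (73.3 ± 5.95), *Nupr1* (69.8 ± 7.495) and *Ddr2* (55.3 ± 11.3) formed a chain of overlapping neighbours. *Trim66* (37.2 ± 5.19), *Stc2* (24.5 ± 4.86), *Adm2* (12.5 ± 2.94) and *Cebpb* (2.44 ± 0.408) were each clear of the next. The order in B6J-*Gtpbp2*-/- mice was *Asns* (330.4 ± 59.2 TPM), *Vldlr* (106.1 ± 8.21), *Ddit4* (76.2 ± 11.1), *Sesn2* (68.1 ± 10.4), *Nupr1* (54.8 ± 16.3), *Ddr2* (51.2 ± 11.4), *Trim66* (37.7 ± 7.19), *Stc2* (21.5 ± 5.97), *Adm2* (12.04 ± 4.24) and *Cebpb* (2.93 ± 1.05), with overlaps from *Ddit4* through to *Trim66* and between *Stc2* and *Adm2*.

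On the scale of CPM per coding kilobase, *Ddit4* led the footprint levels in B6J at 164.6 ± 24.2 (SD, n = 3), ahead of *Asns* at 97.5 ± 12.8 and *Vldlr* at 61.1 ± 4.78, none of which overlapped. *Cebpb*, next to last in B6J by RNA in TPM, stood sixth by this footprint level at 8.32 ± 5.51, overlapping *Sesn2* above it and *Trim66* below it. In B6J.*Gtpbp1*-/- mice *Asns* (264.8 ± 25.4) and *Ddit4* (258.4 ± 59.6) overlapped at the top, and *Trim66* was last at 13.9 ± 4.58. *Ddit4* (274.7 ± 68.8) and *Asns* (250.05 ± 25.4) also overlapped at the top in B6J-*Gtpbp2*-/- mice, with *Trim66* (15.3 ± 2.06) and *Adm2* (15.3 ± 2.09) last.

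*Sesn2*, *Ddit4*, *Adm2* and *Cebpb* have 1 transcript each in the RNA files. *Asns-201* held 91.1 ± 4.64% of *Asns* TPM in B6J, 90.3 ± 0.483% in B6J.*Gtpbp1*-/- cerebella and 89.5 ± 0.904% in B6J-*Gtpbp2*-/- cerebella (SD, n = 3). *Trim66-202* held 87.1 ± 5.50%, 85.1 ± 1.49% and 81.8 ± 3.25% of *Trim66* TPM in the same order, and *Nupr1-201* held 71.1 ± 21.9%, 70.7 ± 3.04% and 71.2 ± 1.73% of *Nupr1* TPM. These shares overlapped between the genotypes.

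*Ddr2-202*, the leading *Ddr2* transcript, held 53.7 ± 13.0% of *Ddr2* TPM in B6J, 73.2 ± 2.39% in B6J.*Gtpbp1*-/- cerebella and 72.1 ± 2.33% in B6J-*Gtpbp2*-/- cerebella, and no mutant library overlapped B6J. *Vldlr-207*, the leading one, held 81.6 ± 4.71%, 78.3 ± 1.86% and 79.0 ± 1.79% of *Vldlr* TPM. *Stc2-201*, the leading *Stc2* transcript, held 74.6 ± 15.4%, 82.6 ± 2.22% and 81.1 ± 10.1% of *Stc2* TPM. Only the leading transcript of each gene is given. These differences belong to the contrast that chose the genes and were not tested.

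Other genes of the ISR moved in the same contrasts. Of 41 ISR regulators and ATF4 targets, 39 had more RNA in B6J.*Gtpbp1*-/- (5.90% of all genes tested) and 37 in B6J-*Gtpbp2*-/- (3.61%) than in B6J mice (edgeR adjusted p of at most 0.05), and 0 had less. Their median log2 fold change was 1.35 and 1.28, against 0.03 and 0.03 over all genes tested. The largest mean changes belonged to *Gdf15* (6.69) and *Fgf21*, both secreted stress hormones with few B6J counts (19, 5 and 1 for *Gdf15*, and 0, 7 and 0 for *Fgf21*, which is given no fold), then to *Trib3* (5.08), a pseudokinase that binds ATF4, *Slc7a3* (4.74), a cationic amino acid transporter, and *Eif4ebp1* (3.33), a repressor of cap-dependent translation. *Atf4* itself stood at 0.90 and 0.83 and *Ddit3*, which encodes CHOP, at 1.29 and 1.18. The symbol *Ddit3* has 2 gene IDs in the RNA files, and the ID with more RNA counts was used. In footprints 21 and 28 of the 41 rose, against 0.573% and 1.28% of all genes tested, with *Atf4* at 1.71 and 1.59. *Gdf15* and *Fgf21* are in each of these counts, although in RNA they passed the filter on low counts only with the help of mutant libraries.

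Relatives of the members were examined in the same RNA contrasts. Of 12 sestrin and GATOR genes, *Seh1l* rose (0.39) and *Castor2* (-0.70) and *Sesn1* (-0.56) fell in RNA in B6J.*Gtpbp1*-/- mice, and only *Sesn1* (-0.42) fell in B6J-*Gtpbp2*-/- mice, in edgeR. *Sesn3* stood at -0.12 and -0.03. Of 5 REDD and TSC genes 0 of 5 were called in either mutant in edgeR, with the *Ddit4* paralog *Ddit4l* at 0.68 and 0.67 and adjusted p of 0.181 and 0.219. Among genes of asparagine and aspartate metabolism, *Nars*, the asparaginyl-tRNA synthetase (1.24 and 1.10), and *Aspg*, an asparaginase (1.13 and 1.17), rose in both mutants. *Asnsd1* stood at -0.02 and -0.03.

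Of the 3 other TIF1 genes, *Trim33* rose in B6J.*Gtpbp1*-/- mice (0.28) and stood at 0.21 in B6J-*Gtpbp2*-/- mice, while *Trim24* (0.24 and 0.27) and *Trim28* (0.24 and 0.21) were not called in edgeR. Among 5 tested C/EBP genes, *Cebpg* (1.29 and 1.20) and *Ddit3* rose in both mutants, *Cebpz* rose (0.26) and *Cebpd* fell (-1.16) in B6J.*Gtpbp1*-/- mice, and *Cebpa* (0.80 and 0.84) was not called. *Cebpe* was not tested, for want of counts. Of the 2 genes beside *Nupr1*, *Nupr1l* and its partner *Msl1*, 0 were called in edgeR, with *Nupr1l* at -0.48 and -0.46.

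Of 7 adrenomedullin peptides and receptors, *Calca*, which encodes calcitonin and CGRP, rose in both mutants (3.03 and 2.92 in RNA), and *Adm* stood at -0.24 and 0.11. Of 4 genes of the stanniocalcin axis, *Stc1* rose (1.16 and 1.64) and *Pappa* fell (-2.77 and -2.71) in both mutants. Among 6 discoidin receptor and collagen genes *Col3a1* rose in B6J.*Gtpbp1*-/- mice (0.45), and the *Ddr2* paralog *Ddr1* stood at -0.03 and 0.04. Among genes of the reelin pathway, the adaptor *Dab1* (-0.34 and -0.40) fell in both mutants, and *Lrp8*, the other reelin receptor, stood at -0.09 and 0.06. In footprints of these relatives edgeR called *Ddit3* in B6J.*Gtpbp1*-/- mice (1.84) and *Nars* in B6J-*Gtpbp2*-/- mice (1.01). Between the mutants 0 were called in RNA or footprints.

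RNA profiles over the 9 RNA libraries were compared by the root mean square difference of log2 CPM centred on the B6J mean, among 16204 other genes with a mean of at least 1 CPM and a count in every library. *Chac1* (0.0834), *Kctd16* (0.120) and *Calca* (0.149) were nearest to *Sesn2*. Nearest to *Ddit4* were *Klhl29* (0.0746), *Slc25a45* (0.0783) and *Ebf1* (0.0948). *Shmt2* (0.121), *Fbln5* (0.126) and *Slc7a1* (0.132) were nearest to *Asns*, and *Slc17a9* (0.257), *Eif4ebp1* (0.269) and *Calca* (0.302) to *Trim66*. Profiles that differ from B6J by a like amount in both mutants are near by this measure.

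The promoters of the 10 genes were searched in RefSeq windows of 300 bases (250 before and 50 after a start; GRCm38.p6), of which the 10 genes have 11. TGATGNAA, the core of the C/EBP-ATF response element, was found, with both strands read, in 3 of 10 genes, *Asns*, *Nupr1* and *Vldlr*, and in 3.971% of all 32817 windows. TGACGTCA was in 0 of 10 genes and 1.792% of windows, and CACGTG in *Nupr1* alone and 7.149% of windows. The 3 matches to TGATGNAA are shown with the match in capitals, read on the strand of the gene. The *Asns* stretch is chr6:7693209-7693248 on the minus strand, the *Nupr1* stretch chr7:126625557-126625596 on the minus strand and the *Vldlr* stretch chr19:27216804-27216843 on the plus strand.
*Asns*: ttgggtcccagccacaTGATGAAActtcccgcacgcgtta
*Nupr1*: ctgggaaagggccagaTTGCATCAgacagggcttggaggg
*Vldlr*: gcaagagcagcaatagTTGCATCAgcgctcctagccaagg

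The match lies 23 bases before a RefSeq start of *Asns*, 110 before that of *Nupr1* and 200 before one of *Vldlr*. By the Gencode coordinates given above, all 3 matches lie inside the genes. *Nupr1* and *Vldlr* carry it in reverse orientation. A match is a run of letters and no evidence of binding.

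The coding sequences, from Gencode M21, held few to many AGA codons, the codon that the *n-Tr20* tRNA reads. The rate ran from 2.08 per 1000 codons in *Sesn2* (1 AGA in 480 codons) to 20 in *Adm2* (3 in 150), with a median of 9.43 over the 10 genes. Over 13359 genes with at least 1 TPM the median was 10.29, with quartiles of 5.17 and 16.87. *Trim66* had 8.11, *Asns* 12.48 and *Cebpb* 3.38 per 1000 codons.

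In whole cerebellum, fewer cells of a type and less RNA per cell cannot be told apart. Granule neuron markers summed to 4395, 4618 and 4545 CPM of RNA in B6J, 3047, 3003 and 3516 CPM in B6J.*Gtpbp1*-/- and 3191, 3372 and 2942 CPM in B6J-*Gtpbp2*-/- libraries, with none at 0. Of 6 such genes 4 fell in B6J.*Gtpbp1*-/- cerebella and 3 in B6J-*Gtpbp2*-/- cerebella in edgeR, *Gabra6* by most (-1.08 and -1.02), and *Fat2* or *Zic1* was the most abundant. Over all genes tested in RNA, 1949 of 24577 and 1248 of 24859 fell. In footprints the sums were 4106, 5630 and 4357 CPM in B6J, 3228, 2491 and 3394 CPM in B6J.*Gtpbp1*-/- and 2440, 2322 and 1986 CPM in B6J-*Gtpbp2*-/- libraries, so that every mutant library was below every B6J library. Of the 6 genes 0 were called in footprints in B6J.*Gtpbp1*-/- mice in edgeR, at a median log2 fold change of -0.60. In B6J-*Gtpbp2*-/- mice 6 of 6 fell in footprints, against 230 of 13797 genes tested. Purkinje cell markers fell in 2 and 3 of 5 genes in RNA. In footprints 0 of 5 were called in edgeR, with a median log2 fold change of 0.12 and 0.66 and sums of 10187 ± 3490 CPM in B6J, 11345 ± 3350 in B6J.*Gtpbp1*-/- cerebella and 15077 ± 1297 in B6J-*Gtpbp2*-/- cerebella (SD, n = 3).

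*Gfap* RNA rose (1.35 and 1.22) and *Slc1a3* and *Aldh1l1* RNA fell in both mutants among 5 astrocyte and Bergmann glia markers. In footprints 0 of these 5 were called in edgeR, at a median log2 fold change of 0.14 and 0.07. Their footprint sums were 3394 ± 330 CPM in B6J, 3965 ± 536 in B6J.*Gtpbp1*-/- cerebella and 3706 ± 337 in B6J-*Gtpbp2*-/- cerebella (SD, n = 3). All 5 oligodendrocyte markers fell in RNA in B6J.*Gtpbp1*-/- mice, and 0 of 5 were called in RNA in B6J-*Gtpbp2*-/- mice, in edgeR. In footprints 0 of 5 were called in edgeR in either mutant, and their sums were 10459 ± 2209 CPM in B6J, 11456 ± 1569 in B6J.*Gtpbp1*-/- cerebella and 12365 ± 734 in B6J-*Gtpbp2*-/- cerebella (SD, n = 3). Microglia markers summed to 63.6 ± 1.88 CPM of RNA in B6J, 106.6 ± 12.05 in B6J.*Gtpbp1*-/- cerebella and 105.7 ± 7.32 in B6J-*Gtpbp2*-/- cerebella (SD, n = 3), led by *Csf1r* in every library, and 3 and 2 of 5 genes rose. Endothelial markers summed to 124.0 ± 0.986, 171.1 ± 11.0 and 188.1 ± 43.3 CPM of RNA, led by *Flt1*, and 3 and 2 of 4 rose, with *Cldn5* rising in the footprints of both mutants. In footprints, microglia markers summed to 126.5 ± 18.8, 251.8 ± 79.6 and 169.6 ± 18.0 CPM in the same order, with 0 of 5 called in edgeR. Endothelial markers summed to 255.6 ± 69.5, 509.3 ± 153.2 and 509.7 ± 64.5 CPM of footprints. In both lists every mutant library was above every B6J library in footprints. Of 4 choroid plexus markers 0 were called in RNA or footprints in edgeR, but their footprint sums, led by *Ttr*, ran from 63.1 to 13699 CPM and their RNA sums from 68.6 (B6J-*Gtpbp2*-/- replicate 1) to 1759 CPM (B6J replicate 1). In footprints B6J replicate 3 (63.1 CPM), B6J.*Gtpbp1*-/- replicate 2 (195.3 CPM) and B6J-*Gtpbp2*-/- replicate 1 (476.0 CPM) were far below the other libraries. Of 5 muscle and blood markers 0 were called in RNA, nor were any of the 5, 3 and 4 that could be tested in footprints of B6J.*Gtpbp1*-/- and of B6J-*Gtpbp2*-/- against B6J and between the mutants, in edgeR. Their RNA sums were 699.0 ± 199.8 CPM in B6J, 1066 ± 109.3 in B6J.*Gtpbp1*-/- cerebella and 576.1 ± 376.4 in B6J-*Gtpbp2*-/- cerebella (SD, n = 3). Every B6J.*Gtpbp1*-/- library was above every B6J library in these RNA sums. Footprint sums were 526.2 ± 197.3, 1121 ± 560.6 and 1254 ± 1053 CPM in the same order, and each mutant overlapped B6J. The part of these cells in the differences of the 10 genes was not tested.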

How the data were processed

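The authors pseudo-aligned RNA reads with kallisto (0.42.4) and deposited an estimated count and a TPM for each of 138835 transcripts. The authors mapped footprints with HISAT2 (2.1.0) after removal of ribosomal RNA with Bowtie2 (2.2.3), and deposited, for each gene, a raw count of the footprints that featureCounts placed on coding sequence.

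Estimated counts were summed per gene and rounded, and 54723 genes were matched to Gencode M21. Genes that reached 5 counts in 3 or more of the libraries compared were tested by the quasi-likelihood test of edgeR (4.0.16, R 4.3.3) with TMM, robust estimation and Benjamini-Hochberg adjustment over all genes, and called at an adjusted p of at most 0.05. For TE the interaction of assay and genotype was tested in genes that reached 10 counts in 3 or more libraries of RNA and in 3 or more of footprints, without *Hist* genes. The alternatives were DESeq2 (1.42.0), upper quartile normalization, no filter, a replicate block, all libraries in a single model, sex as a covariate, an offset for transcript length, protein-coding transcripts alone, TMM within assay and leaving out each library. Tests were checked on simulated data, where false calls exceeded the intended rate in most comparisons and many smaller changes were missed. Larger ones were missed too. Of log2 changes of 2, between 66.3 and 75.8% were recovered in RNA, 84 to 94.7% in footprints and 90.3 to 95.2% in TE.

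Members and lists were chosen with earlier results of these data known. All 10 members were named. Of lists of related genes, most of those past the threshold in RNA and direct paralogs were named, and of the ISR list the 5 with the largest mean change, *Atf4* and *Ddit3*. For *Sesn2*, *Ddit4*, *Asns* and *Trim66* the 3 genes of nearest RNA profile were named. That comparison was first run with a pseudocount of 0.5 CPM, and the version without one was made the main one after these results were seen.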

Additional observations from a re-analysis of the deposited data

How the results depend on the processing

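Over the alternatives for single members, 772 values kept their direction and side of the threshold, 28 lost the call, 19 gained it and 3 turned sign. The 3 that turned were *Nupr1* TE in B6J.*Gtpbp1*-/- mice, at 0.02, 0.07 and 0.15 in a range of -0.29 to 0.15 without single libraries, against -0.05 in the main test, where the interval spans 0. The cause was not tested for any change below unless stated.

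In B6J.*Gtpbp1*-/- mice the number of genes with more RNA (1449) was 938 with a replicate block, 929 with sex as a covariate, 897 with an offset for transcript length and 726 to 1660 without single libraries. In B6J-*Gtpbp2*-/- mice (898) it was 1487 with DESeq2, 477 with sex, 568 with the offset and 380 to 971 without single libraries. Genes with more footprints in B6J.*Gtpbp1*-/- mice (80) numbered 251 with DESeq2, 161 without a filter, 40 with a replicate block, 150 with all 9 libraries, 49 with sex and 18 to 115 without single libraries. In B6J-*Gtpbp2*-/- mice (176) they numbered 300 with DESeq2, 25 with sex and 55 to 297 without single libraries. RNA against B6J chose the members, so nothing is read from their RNA calls against B6J below, whether kept, gained or lost. Members past the threshold in RNA numbered 7 to 10 in B6J.*Gtpbp1*-/- and 7 to 9 in B6J-*Gtpbp2*-/- mice without single libraries. In these RNA fits *Adm2* is not tested when a mutant library is missing. *Ddit4* RNA, not past it in the main test, was past it in 4 of 14 alternatives in B6J.*Gtpbp1*-/- mice (adjusted p of 0.00290 to 0.0296) and in 5 of 14 in B6J-*Gtpbp2*-/- mice (0.0124 to 0.0491). *Cebpb* RNA lost its call in B6J.*Gtpbp1*-/- mice without B6J.*Gtpbp1*-/- replicate 2 or 3 (edgeR adjusted p = 0.0690 and 0.0532). In B6J-*Gtpbp2*-/- mice its call was lost with sex (0.0578) and without B6J-*Gtpbp2*-/- replicate 2 (0.0744) or B6J replicate 2 (0.0540). In these fits its log2 fold change lay between 1.46 and 1.73. *Vldlr* RNA lost its call in B6J-*Gtpbp2*-/- mice without B6J replicate 1 (0.0528, at 0.50). Members with more footprints numbered 5 with sex in B6J-*Gtpbp2*-/- mice, a fit in which the B6J-*Gtpbp2*-/- libraries, all female, have only B6J replicate 3 of their own sex, and 5 to 8 in B6J.*Gtpbp1*-/- and 5 to 9 in B6J-*Gtpbp2*-/- mice without single libraries, where *Adm2* is not tested when a mutant library is missing.

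Genes called in RNA between the mutants (15) numbered 46 with DESeq2, 36 without a filter, 9 with sex, 5 with protein-coding transcripts alone and 9 to 17 without single libraries. In footprints between the mutants (0) they numbered 100 with DESeq2, 3 with upper quartile normalization, 15 without a filter, 1 with a replicate block, 1 with all 9 libraries and 0 to 33 without single libraries, and DESeq2 called 1 member, *Adm2*.

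For TE in B6J.*Gtpbp1*-/- mice (0) DESeq2 called 58 genes and 2 members, *Asns* and *Trim66*, and 0 to 174 genes and 0 to 1 members were called without single libraries. In B6J-*Gtpbp2*-/- mice (1) DESeq2 called 160 genes, the test without a filter 2, that with all 18 libraries 11, and 0 to 158 were called without single libraries. *Trim66* was the 1 member called there by DESeq2, without a filter, with a replicate block, with all 18 libraries and without footprint B6J replicate 3. Between the mutants (0) DESeq2 called 155 genes, and 0 to 177 were called without single libraries.

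Libraries of the same replicate number were not more alike than others, with correlations of their residuals between -0.208 and 0.231 in RNA and between -0.333 and 0.166 in footprints, so values with a replicate block are given here alone. With the replicate block *Trim66* footprints in B6J.*Gtpbp1*-/- mice lost their call (adjusted p = 0.0927), *Ddit4* RNA in B6J-*Gtpbp2*-/- mice passed the threshold (0.0124), and *Trim66* TE in B6J-*Gtpbp2*-/- mice was called (0.0201). Nothing is read from the *Ddit4* RNA and *Trim66* TE calls, since RNA against B6J chose the genes. The genes nearest to *Sesn2*, *Ddit4*, *Asns* and *Trim66* shared 1, 3, 2 and 1 of 3 with those under a pseudocount of 0.5 CPM.

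*Adm2* rested on 3 RNA counts and 2 footprints in B6J, and *Cebpb* RNA on 22 to 131 counts a library, so their ratios are loose. With 3 libraries a group and footprint depths from 3630823 to 10442573, calls near the threshold, *Ddit4* and *Nupr1* in B6J-*Gtpbp2*-/- and *Trim66* in B6J.*Gtpbp1*-/- footprints among them, hang on single libraries. Sex is unbalanced, with all B6J-*Gtpbp2*-/- libraries female and both sexes in B6J, so its share in those comparisons rests on few libraries. Counts per gene hold no position of a ribosome on an mRNA.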
